A study of Mus musculus with 17 samples.

Results

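The lineage regulators described here are 10 genes that mark or direct the identity of lung tumor epithelium, namely Nkx2-1, Foxa1, Foxa2, Hnf4a, Gkn2, Sox9, Sox2, Trp63, Krt5 and Hmga2. They were listed with earlier results of these data known and taken by gene symbol from the 16410 genes of the tumor cell table, which held all 10. The table of tissue-resident macrophages (TRMs) held 2 of them among 13545 genes and the table of monocyte-derived macrophages (MDMs) held 3 among 13407. The study measured poly(A) RNA by bulk RNA sequencing of cells sorted from autochthonous mouse lung tumors with and without an inducible deletion of Gpx4, which encodes a lipid peroxide reductase that restrains ferroptosis. KL and KLG4 mice were compared, each with 2 libraries per sorted population, which makes 12 of the 17 libraries of the series.

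KL mice carried Lkb1fl/fl, from which Cre removes Lkb1 (gene symbol Stk11), in a Cre-induced lung tumor model. KLG4 mice shared that background and also carried Gpx4m/m, with rox sites around exons 5 to 7 of Gpx4 and a Dre recombinase that needs both Cre and tamoxifen, so that Gpx4 is deleted only in cells that Cre has reached. Mice of both genotypes received intranasal Ad-Cre and later tamoxifen, and both therefore share the tumor model, the Lkb1 alleles, the virus and the drug. Cells were collected 10 weeks after Ad-Cre. Per the study's methods the mice were 8 to 10 weeks old at infection, tamoxifen began 5 weeks later for 2 weeks, and 3 weeks of rest followed. Ad-Cre is not restricted to 1 lung cell type. Tumor cells were gated as EpCAM-positive cells without CD45 and CD31, which means that Epcam, Ptprc and Pecam1 are genes of the gate. The study's sorting methods write the tumor cell gate as CD45.2-positive, whereas its account of the sequenced tumor cells gives it as CD45-negative. The study counts the tumor cell replicates as mice. For the macrophages nothing in the sources used here says that replicates are separate animals, and p-values there measure the spread between these samples, which may be technical.

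As background, Nkx2-1 is the homeodomain factor that specifies lung epithelium and sustains surfactant genes, and it shares many of its binding sites with the pioneer factors Foxa1 and Foxa2. In lung tumors that lose Nkx2-1, Foxa1 and Foxa2 are known to move to gastric and intestinal genes, and Hnf4a and the gastrokines, among them Gkn2, mark that gastric-like state. Sox2, Trp63 and Krt5 belong to the airway basal and squamous program, which Lkb1-deficient lung tumors can enter, while Sox9 marks distal progenitors of the fetal lung and Hmga2 is a fetal chromatin protein silenced by let-7 that reappears in advanced lung tumors.

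RefSeq promoter windows of GRCm38.p6, here the 250 bases before each start site, existed for 8 of the 10 genes. The 4 windows below were chosen after the values were seen, to show a lung member and a gastric member that were lower in KLG4 cells (Nkx2-1 and Gkn2), a pioneer factor (Foxa1) and a basal keratin (Krt5). All run 5′ to 3′ on the gene's own strand, and capitals mark motif matches. The motifs were NKX (CAAGTG or CTCAAG), forkhead (TGTTTAC or TGTTTGC), HNF4 (CAAAGTC) and SOX (ACAATG or ACAAAG), each on both strands, and the TATA box (TATAAA) on the gene's strand.
Nkx2-1 (chr12:56536909-56537158, minus strand): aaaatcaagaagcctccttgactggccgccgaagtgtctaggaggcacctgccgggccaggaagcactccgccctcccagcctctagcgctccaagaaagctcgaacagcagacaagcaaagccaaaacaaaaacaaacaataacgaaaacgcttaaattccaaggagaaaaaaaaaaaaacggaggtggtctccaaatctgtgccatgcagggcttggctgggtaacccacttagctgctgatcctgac
Gkn2 (chr6:87373115-87373364, plus strand): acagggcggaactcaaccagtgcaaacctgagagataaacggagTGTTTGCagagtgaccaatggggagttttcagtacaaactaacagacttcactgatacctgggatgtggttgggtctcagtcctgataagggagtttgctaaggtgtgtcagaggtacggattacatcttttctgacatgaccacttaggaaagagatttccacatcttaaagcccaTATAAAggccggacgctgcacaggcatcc
Foxa1 (chr12:57546112-57546361, minus strand): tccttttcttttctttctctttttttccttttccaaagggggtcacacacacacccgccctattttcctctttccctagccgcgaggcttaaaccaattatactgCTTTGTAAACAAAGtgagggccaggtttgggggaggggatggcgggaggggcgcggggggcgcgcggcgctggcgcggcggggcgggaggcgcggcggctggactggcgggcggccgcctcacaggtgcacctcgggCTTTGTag
Krt5 (chr15:101712906-101713155, minus strand): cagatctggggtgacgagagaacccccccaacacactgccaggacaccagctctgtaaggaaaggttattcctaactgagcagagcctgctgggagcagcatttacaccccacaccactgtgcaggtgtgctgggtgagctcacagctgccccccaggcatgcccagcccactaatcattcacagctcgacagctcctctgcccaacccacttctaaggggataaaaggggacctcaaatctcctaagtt

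The Gkn2 window held a forkhead match at -206 and a TATA box at -29, where -1 is the base before the start site. The Foxa1 window held a forkhead match at -141 that overlaps SOX matches at -145 and -137, and a further SOX match at -8. The windows of Nkx2-1 and Krt5 held none of these letters. Among 32851 mouse promoter windows of the same length, 7.29% held a forkhead match, 25.2% a SOX match, 22.6% an NKX match, 3.84% an HNF4 match and 7.59% a TATA box. Base composition set the 4 windows apart, from 2 CpG dinucleotides in Krt5 and 5 in Gkn2 to 9 in Nkx2-1 and 21 in Foxa1, against a median of 6 over all windows.

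Depth in the tumor cell table was 36.6 M and 30.2 M counted reads in the KL libraries and 17.6 M and 15.9 M in the KLG4 libraries, as recovered from the steps of the deposited RPKM values (reads scaled by gene length and library depth). The targeted gene Gpx4 read 95.0 and 76.8 RPKM in KL tumor cells and 56.4 and 61.9 RPKM in KLG4 tumor cells, so its whole-gene level was lower but not absent. Gpx4 was also lower in KLG4 TRMs, at 89.8 and 88.2 RPKM in KL and 53.8 and 57.0 RPKM in KLG4, and it was higher in KLG4 MDMs, at 44.9 and 71.3 RPKM in KL and 93.6 and 97.7 RPKM in KLG4. A lower whole-gene level was thus not particular to the tumor cells. Stk11 read 25.9 and 25.8 RPKM in KL tumor cells and 61.6 and 61.6 RPKM in KLG4 tumor cells, and it was higher in both KLG4 libraries of both macrophage populations too. In the macrophage tables, depth was 9.14 M to 26.8 M reads. Mitochondrial genes and their copies took 7.38% and 8.26% of reads in KL tumor cells and 14.8% and 14.7% in KLG4 tumor cells. In TRMs they took 31.5% and 22.3% in KL and 2.95% and 5.78% in KLG4. In MDMs they took 2.75% and 7.31% in KL and 0.921% and 1.33% in KLG4.

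The contents of the gate differed between the genotypes. Summed over 15 epithelial markers, the level was 9099 and 6832 RPKM in KL libraries and 3896 and 3925 RPKM in KLG4 libraries. Of these 15 genes 13 were called lower in KLG4 cells and 0 higher (limma, adjusted p under 0.05). All 10 leukocyte markers were called higher, their sum going from 23.8 and 32.3 RPKM to 240 and 247 RPKM, and 9 of 10 fibroblast markers were called higher, from 87.6 and 86.3 RPKM to 477 and 478 RPKM. Without Fn1, the marker that was not called and that makes up most of the KL sum, the fibroblast sum went from 12.2 and 17.0 RPKM to 390 and 389 RPKM. In both KL libraries 3 leukocyte and 5 fibroblast markers were under 1 RPKM, so these passed the expression filter given below through KLG4 alone. With no filter 10 of 10 leukocyte and 9 of 10 fibroblast markers were called higher. Over all genes 20.6% were called higher and 19.6% lower with the filter, and 38.7% were called with no filter. Ptprc, which encodes CD45, read 0.834 and 2.06 RPKM in KL and 26.7 and 27.4 RPKM in KLG4, while Epcam read 638 and 420 RPKM in KL and 215 and 211 RPKM in KLG4. Ciliated markers gave 0 calls among 6 genes in limma, and 0 at an unadjusted p under 0.05, while all 6 were called higher on the epithelial scale introduced below (median 1.32). No epithelial, leukocyte or fibroblast marker was at 0 in both libraries of a genotype. The shift runs parallel to every tumor cell comparison below. For this reason the fold change of each member that passed the expression filter is given on the deposited scale and again after scaling the libraries to the mean log2 level of 14 epithelial markers, Epcam left out. That scaling adds the same amount to the log2 fold change of every gene, so it leaves their order unchanged. In bulk RNA, fewer cells of a type and less RNA per cell cannot be told apart.

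**Figure D1:**
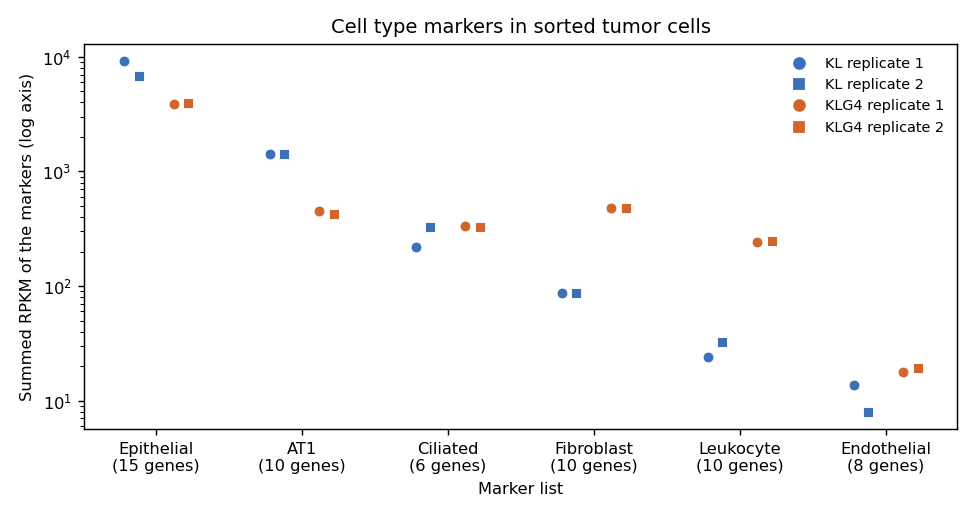
Summed RPKM of 6 marker lists (log axis) in the 2 KL and 2 KLG4 tumor cell libraries, 1 point per library. The fibroblast sum lies at 86.3 to 87.6 RPKM in KL and 477 to 478 RPKM in KLG4, and the epithelial sum is lower in both KLG4 libraries.

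In the tumor cells, 9 of the 10 regulators passed the expression filter (at least 1 RPKM in at least 2 of 4 libraries) and Trp63 did not. Nkx2-1, Foxa2, Gkn2 and Hmga2 were called lower in KLG4 cells and Krt5 was called higher, at an adjusted p under 0.05 from limma over all 13770 genes tested. That is 5 of 9 members, against 40.3% of all genes tested, and 7 of 9 on the epithelial scale described above, against 63.1%. Lower calls made up 19.6% of all genes and higher calls 20.6%. Hmga2 reached the filter in the KL libraries alone, where it is high, and Krt5 reached it in both KLG4 libraries and in 1 KL library, so both entered the count through the group where they are high. In the fit with no filter the same 5 genes were called out of 10 members, against 38.7% of all genes. The median log2 fold change was -0.56 over the 9 members and -0.09 over all genes. KL and KLG4 libraries did not overlap for 9 of the 10 members, against 72.9% of all genes in the table. The fold changes throughout are on the log2(RPKM + 0.1) scale.

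**Figure D2:**
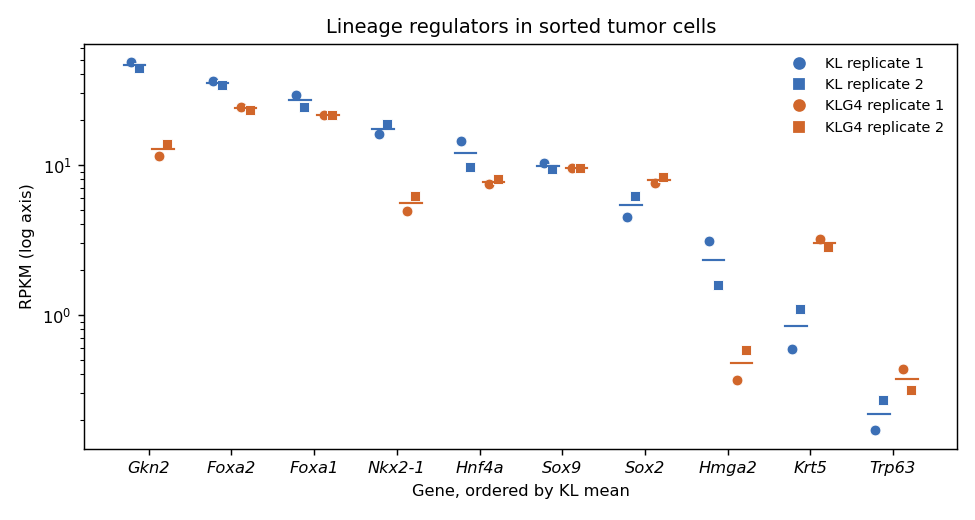
RPKM of the 10 genes (log axis) in each KL and KLG4 tumor cell library, with points for libraries and bars for the mean of 2. Gkn2 leads in KL at 44.1 to 48.2 RPKM and falls to 11.5 to 13.8 RPKM in KLG4, Sox9 overlaps between genotypes, and Krt5 is higher in both KLG4 libraries.

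Levels per length ordered the 10 genes differently in the 2 genotypes. In KL cells the order of mean RPKM ran from Gkn2 through Foxa2, Foxa1, Nkx2-1, Hnf4a, Sox9, Sox2, Hmga2 and Krt5 to Trp63, and the libraries of neighbours overlapped for Hnf4a and Sox9 alone. In KLG4 cells it ran from Foxa2 through Foxa1, Gkn2, Sox9, Sox2, Hnf4a, Nkx2-1, Krt5 and Hmga2 to Trp63, with overlaps between Sox2 and Hnf4a and between Hmga2 and Trp63. Nkx2-1 thus moved from the fourth place to the seventh and Gkn2 from the first to the third.

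Nkx2-1 (GRCm38 chromosome 12, 56531958 to 56536908, minus strand) read 16.0 and 18.8 RPKM in KL tumor cells and 4.91 and 6.19 RPKM in KLG4 tumor cells. Both KLG4 libraries lay well below both KL libraries. The log2 fold change was -1.64 ± 0.18 (SE, limma adjusted p = 0.00176). Scaled to the epithelial markers it was -0.74 ± 0.22 (limma adjusted p = 0.0241), again lower in KLG4. Gm26973, an RNA annotated antisense to Nkx2-1, read 4.27 and 6.17 RPKM in KL and 1.72 and 1.76 RPKM in KLG4. Because the library kit did not keep the strand, reads where the genes overlap cannot be assigned to one or the other.

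Foxa1 and Foxa2, the pioneer factors that open chromatin in endoderm-derived epithelium, stayed among the most abundant members. Foxa1 (chromosome 12, 57540631 to 57546121, minus strand) read 29.2 and 24.4 RPKM in KL and 21.5 and 21.6 RPKM in KLG4. The libraries did not overlap, but the log2 difference of -0.31 ± 0.14 did not pass the test (limma adjusted p = 0.130). Foxa2 (chromosome 2, 148042877 to 148046969, minus strand) read 36.0 and 34.2 RPKM in KL and 24.5 and 23.1 RPKM in KLG4. It fell, by 0.56 ± 0.12 on the log2 scale (limma adjusted p = 0.0152). Epithelial scaling turned both signs. Foxa1 was then called higher, at 0.59 ± 0.15 (limma adjusted p = 0.0138), and Foxa2 gave 0.34 ± 0.15 without a call (limma adjusted p = 0.0870).

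Gkn2 is a gastrokine secreted by stomach epithelium (chromosome 6, 87373357 to 87379497, plus strand), and with Hnf4a it makes up the gastric pair. Gkn2 read 48.2 and 44.1 RPKM in KL cells and 11.5 and 13.8 RPKM in KLG4 cells. The genotypes were far apart relative to the gap between replicates, with a log2 fold change of -1.86 ± 0.14 (limma adjusted p = 0.000656) and of -0.96 ± 0.16 after epithelial scaling (limma adjusted p = 0.00216). Hnf4a, the nuclear receptor of gut and liver epithelium (chromosome 2, 163506808 to 163572910, plus strand), read 14.4 and 9.59 RPKM in KL and 7.39 and 8.07 RPKM in KLG4. The KL replicates differed more from each other than the nearer one did from KLG4. The difference of -0.60 ± 0.22 did not pass (limma adjusted p = 0.0835), and among the alternatives tried it was called only without KL replicate 2, where it was -0.89 (limma adjusted p = 0.00376), while without KL replicate 1 it was -0.31 (limma adjusted p = 0.0953). On the epithelial scale Hnf4a gave 0.30 ± 0.21 (limma adjusted p = 0.222).

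Sox9, the distal progenitor factor (chromosome 11, 112782224 to 112787760, plus strand), read 10.2 and 9.35 RPKM in KL and 9.50 and 9.54 RPKM in KLG4. It was the 1 member whose genotypes overlapped, at a log2 difference of -0.04 ± 0.14 (limma adjusted p = 0.841). Epithelial scaling moved it to 0.86 ± 0.18 (limma adjusted p = 0.00631), close to the fold change of the median gene on that scale, 0.81. Sox2, the proximal airway and squamous factor (chromosome 3, 34650405 to 34652461, plus strand), read 4.50 and 6.20 RPKM in KL and 7.60 and 8.31 RPKM in KLG4. Both KLG4 libraries were above both KL libraries. The difference of 0.58 ± 0.20 missed the threshold (limma adjusted p = 0.0700), and it passed at 1.48 ± 0.26 with epithelial scaling (limma adjusted p = 0.00315) and at 0.69 when rescaled outside mitochondrial genes (limma adjusted p = 0.0488). Sox2ot, the long RNA that spans Sox2, stayed at 0.0391 to 0.152 RPKM in the 4 libraries.

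Krt5, the basal cell keratin (chromosome 15, 101707070 to 101712891, minus strand), read 0.586 and 1.09 RPKM in KL cells and 3.21 and 2.84 RPKM in KLG4 cells, on 47 and 72 reads in KL and 124 and 99 in KLG4. It rose by 1.79 ± 0.31 on the log2 scale (limma adjusted p = 0.00880, and 0.00749 with no filter), and by 2.69 ± 0.38 with epithelial scaling (limma adjusted p = 0.00114). With a pseudocount of 1 the change was 1.14 (limma adjusted p = 0.00349). Gm44323, a microRNA gene inside Krt5, read 1.91 and 3.33 RPKM in KL and 9.23 and 15.6 RPKM in KLG4, and the reads of the pair cannot be told apart without strand. Trp63, the p63 regulator of basal cells (chromosome 16, 25683763 to 25892102, plus strand), read 0.169 and 0.268 RPKM in KL and 0.432 and 0.314 RPKM in KLG4. With 42 to 68 reads per library it stayed below the filter, and the fit without a filter gave 0.58 ± 0.28 (limma adjusted p = 0.163).

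Hmga2 (chromosome 10, 120361275 to 120476469, minus strand) read 3.08 and 1.58 RPKM in KL and 0.368 and 0.584 RPKM in KLG4. KL replicate 1 held the highest value, and both KLG4 libraries lay below both KL libraries. It fell by 2.03 ± 0.39 on the log2 scale (limma adjusted p = 0.0117, and 0.00956 with no filter), and the value after epithelial scaling was -1.13 ± 0.37 (limma adjusted p = 0.0318). The size depended on the settings, at -3.29 with quantile scaling and -1.14 with a pseudocount of 1. On the deposited scale its error was the widest among the 9 members tested, on 44 to 63 reads in KLG4 cells and 324 to 764 in KL cells.

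**Figure D3:**
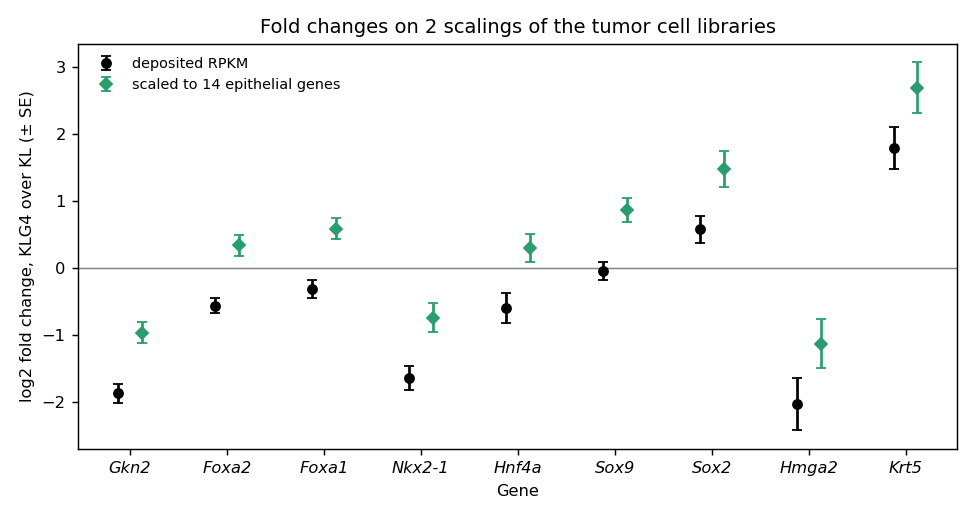
log2 fold change of KLG4 over KL with its SE for the 9 members tested, on the deposited RPKM scale and after scaling to 14 epithelial markers. Nkx2-1, Gkn2 and Hmga2 lie below 0 and Krt5 and Sox2 above 0 on both, while Foxa1, Foxa2, Hnf4a and Sox9 change sign.

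On the epithelial scale 3 members were called lower (Nkx2-1, Gkn2 and Hmga2) and 4 higher (Krt5, Sox2, Sox9 and Foxa1). Lower calls were 2.31% of all genes tested on that scale and higher calls 60.8%, so over all genes higher calls were common there and lower calls were not. Lower calls were not particular to the members. In the lists below they covered 5 of 10 surfactant, alveolar type 2 and club cell genes and 4 of 10 alveolar type 1 genes. They covered 0 of 15 lung transcription factors, 1 of 12 gastric and intestinal genes and 1 of 12 basal and squamous genes. The median gene stood at 0.81 on that scale, and the values for Foxa1, Foxa2 and Hnf4a lay below it, as they did on the deposited scale. The part of the leukocyte and fibroblast markers in these results was not tested beyond this scaling.

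The KL replicates spread more widely than the KLG4 replicates. Over all genes the KLG4 replicates differed by a chi-square of 3.28 per gene and the KL replicates by 60.4 per gene. Counting error alone would give about 1 per gene. The main limma fit pools these unequal spreads in every tumor cell error and p-value. Leaving out a library leaves 1 library in its group, which limma then assumes to vary like the pair of the other genotype, so these fits take their spread from the wide KL pair or from the close KLG4 pair. Without KLG4 replicate 1 or without KLG4 replicate 2, 2 members were called, Nkx2-1 and Gkn2, against 14.5% and 14% of all genes in those fits, and the log2 values of Foxa2 (-0.60 and -0.52), Krt5 (1.70 and 1.87) and Hmga2 (-1.76 and -2.30) kept their sign but not their call (limma adjusted p from 0.0580 to 0.188). Without KL replicate 2, 8 members were called, with Foxa1, Hnf4a and Sox2 added, against 53.5% of all genes. Without KL replicate 1 the log2 differences of the same 3 genes were smaller and not called, at -0.18 for Foxa1, -0.31 for Hnf4a and 0.35 for Sox2. Rescaling outside mitochondrial genes gave 6 called members of 9, against 36.4% of all genes, and a filter on a mean of at least 5 RPKM gave 3 of the 7 members it kept, against 46.7%.

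Ratios between members within a library depend little on how that library is scaled, since only the added 0.1 RPKM does not cancel. The log2 ratio of Nkx2-1 to Foxa1 was -0.86 and -0.37 in KL cells and -2.11 and -1.79 in KLG4 cells, and that of Nkx2-1 to Foxa2 was -1.16 and -0.86 in KL and -2.29 and -1.88 in KLG4. Nkx2-1 was thus lower against both of its partners in each KLG4 library. Foxa2 to Foxa1 moved less, from 0.30 and 0.48 to 0.19 and 0.10. The log2 ratio of Hnf4a to Nkx2-1 was -0.16 and -0.97 in KL and 0.58 and 0.38 in KLG4, so that Hnf4a was below Nkx2-1 in both KL libraries and above it in both KLG4 libraries. Gkn2 to Hnf4a went from 1.74 and 2.19 to 0.63 and 0.77, so the gastric pair did not move as one. The largest change was in Sox2 to Nkx2-1, from -1.81 and -1.59 to 0.62 and 0.42, a difference of 2.22 against a pooled SD of 0.15. Sox2 to Sox9 went from -1.17 and -0.58 to -0.32 and -0.20. In each of these 7 ratios the 2 genotypes did not overlap. The pairs were chosen after values were seen and several share Nkx2-1. No share over other pairs was computed to set beside this count. Of single genes in the table, 72.9% did not overlap. With 2 libraries against 2 an exact two-sided permutation test cannot give a p below 0.333.

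**Figure D4:**
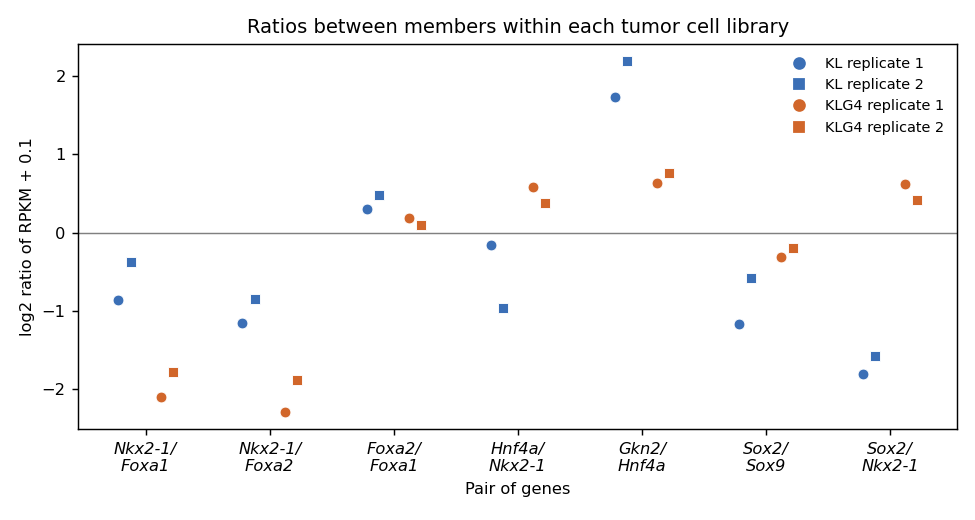
log2 ratio of RPKM + 0.1 for 7 pairs of members in each tumor cell library, 1 point per library. The Hnf4a to Nkx2-1 and Sox2 to Nkx2-1 ratios are below 0 in both KL libraries and above 0 in both KLG4 libraries.

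Genes that act with these regulators were read from lists by role, and their counts stand against 19.6% lower and 20.6% higher calls over all genes, or 2.31% and 60.8% on the epithelial scale. No list was tested as a group. Among 15 tested lung transcription factors that work beside Nkx2-1, Foxa1 and Foxa2, 6 were called lower and 1 higher, with a median log2 fold change of -0.38 against -0.09 over all genes. Etv5 (-1.32), Etv4 (-1.03) and Irx2 (-0.97) fell furthest, and Id2, an inhibitor of helix-loop-helix factors, rose from 12.1 and 10.5 RPKM to 28.7 and 35.7 RPKM. Epithelial scaling turned this list, with 7 called higher, 0 lower and a median of 0.52, below the 0.81 of the median gene, and Etv5 (-0.42), Etv4 (-0.13) and Irx2 (-0.07) were no longer called. Of 10 surfactant, alveolar type 2 and club cell genes that depend on Nkx2-1, 8 were called lower and 2 higher, with a median of -1.25. Sftpc (surfactant protein C, -2.08), Napsa (the aspartic protease napsin A, -1.94) and Lamp3 (a lamellar body protein, -1.69) fell, while the club cell secretoglobins Scgb1a1 (0.88) and Scgb3a2 (0.62) rose. With epithelial scaling 5 of the 10 were still called lower, Sftpc at -1.18, and the same 2 counted as higher.

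Of 12 gastric and intestinal genes tested, 5 were called lower and 2 higher, with a median of -0.74. Krt20 (an intestinal keratin, -2.06), Onecut2 (a liver and gut factor that reached the filter in KL alone, -1.44) and the trefoil peptide Tff1 (-1.32) fell. Tff2, the trefoil peptide of gastric mucous neck cells, rose from 53.3 and 44.3 RPKM to 109 and 120 RPKM, and the gastric and airway mucin Muc5ac rose from 0.396 and 1.06 RPKM to 1.91 and 2.44 RPKM. Gkn1, another gastrokine, read 14.9 and 15.8 RPKM in KL and 10.5 and 9.35 RPKM in KLG4 and fell by 0.62 on the log2 scale (limma adjusted p = 0.0184). After epithelial scaling 1 of the 12 was called lower and 4 higher, the median was 0.16, and Tff1 (-0.42), Onecut2 (-0.54) and Gkn1 (0.28) were not called.

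Of 12 basal and squamous genes tested, 2 were called higher, Krt17 (0.92) and Krt15 (0.76), both keratins of basal cells, and 5 were called lower, with a median of -0.58. The cornified envelope protein Ivl (-2.15), Sfn, the 14-3-3 sigma protein (-1.18), and Krt14, the usual pairing partner of Krt5 (-1.08), fell. Krt14 read 11.7 and 10.9 RPKM in KL and 6.19 and 4.54 RPKM in KLG4. With epithelial scaling 2 were called higher and 1 lower, the median was 0.32, and Krt14 (-0.18) and Sfn (-0.28) were not called.

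Of 5 fetal growth genes tested beside Hmga2, 2 were called higher and 1 lower, and 3 higher and 1 lower with epithelial scaling, shares near those over all genes for the lower calls on the deposited scale and the higher calls on the epithelial scale. Hmga1, the close relative of Hmga2, went from 255 and 165 RPKM to 77.0 and 74.4 RPKM and fell by 1.44 on the log2 scale (-0.54 with epithelial scaling, limma adjusted p = 0.0309). H19 and Igf2, imprinted neighbors, rose by 3.05 and 2.37 but stayed at or below 2.54 RPKM, and both reached the filter in KLG4 alone. All 6 tested mesenchymal genes were called higher, but 4 of them (Zeb1, Snai2, Twist1 and Prrx1) reached the filter in KLG4 alone, so the count over tested genes carries little. With no filter 8 of 8 in the table were called higher. The largest values among the tested genes were Zeb2 (3.97), Vim (3.95) and Twist1 (3.16). Vim read 21.2 and 22.8 RPKM in KL and 347 and 335 RPKM in KLG4, and the fibroblast gene Dcn rose in the same libraries from 3.15 and 4.57 RPKM to 209 and 203 RPKM. The part of fibroblast and leukocyte RNA in these calls was not tested.

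Among markers of other cell types, 7 of 10 alveolar type 1 genes were called lower and 1 higher, Ager at -2.97 and Pdpn, which fibroblasts also use, at 2.27. Of the 7, Rtkn2 reached the filter in KL alone. Endothelial markers gave 4 higher calls among 6 tested, neuroendocrine markers 1 of 4 (Syp, 1.11), and mesothelial markers 1 lower call of 1 tested (Msln, -0.65). Among the endothelial calls, Kdr reached the filter in KLG4 alone. The 1 glial marker tested, S100b, was at -0.19 (limma adjusted p = 0.683), and no cartilage marker, a tissue that uses Sox9, passed the filter. Markers of resident alveolar macrophages gave 6 higher calls of 8 and markers of monocyte-derived macrophages 8 of 8. Of these, 1 resident and 3 monocyte-derived markers reached the filter in KLG4 alone, and with no filter the counts were again 6 and 8. Over all genes 20.6% were called higher and 19.6% lower. With epithelial scaling the alveolar type 1 genes gave 4 lower and 3 higher calls, the endothelial markers 5 higher calls and the neuroendocrine markers 3, while Msln was not called (0.25) and the counts of both macrophage lists did not move.

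In the macrophages the regulators were scarce. The 2 tables were normalized separately from that of the tumor cells, so levels set across tables are descriptions. TRMs carried their own markers, with a summed level of 8350 to 12883 RPKM over 8 resident macrophage genes against 1274 to 2312 RPKM in MDMs. Foxa2 in TRMs read 0.760 and 0.554 RPKM in KL and 0 and 0.215 RPKM in KLG4, on 18, 12, 0 and 6 reads. Hnf4a in TRMs read 0.373 and 0.680 RPKM in KL and was listed at 0 in both KLG4 libraries, where 3 reads, the limit that a count of 0 allows, would equal 0.0232 and 0.0529 RPKM. Both genes were higher in each KL library than in each KLG4 library, as 10.7% of all TRM genes were. Neither passed the filter. In the fit without a filter neither was called (limma adjusted p = 0.140 for Foxa2 and 0.0709 for Hnf4a, unadjusted 0.0232 and 0.00312), and 0.886% of all genes were.

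In MDMs, Foxa1 read 0.406 and 1.15 RPKM in KL and 0 and 0.289 RPKM in KLG4. Foxa2 there read 0.455 and 0.895 RPKM in KL and 0 and 0.211 RPKM in KLG4. Hnf4a read 0.201 and 1.12 RPKM in KL and 0 and 0.366 RPKM in KLG4, and it overlapped between genotypes, unlike Foxa1 and Foxa2, which were lower in both KLG4 libraries, as 21.6% of all MDM genes were. KL replicate 2 was highest and KLG4 replicate 1 at 0 for all 3 genes. Without a filter none was called (limma adjusted p from 0.675 to 0.692, with Foxa2 at an unadjusted 0.0312), and limma called 0 of 13407 MDM genes, 968 having an unadjusted p under 0.05. Voom on recovered reads also called 0 MDM genes.

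Epithelial keratins in MDMs had the same library order as Foxa1 and Foxa2. Krt18, a keratin of simple epithelia, read 30.3 and 104 RPKM in KL MDMs and 2.55 and 18.3 RPKM in KLG4 MDMs, which is 1.05% and 3.62% of its KL tumor cell mean and 0.187% and 1.35% of its KLG4 tumor cell mean. Foxa2 in MDMs stood at 1.30% and 2.55% of its KL tumor cell mean and at 0% and 0.886% of its KLG4 mean. In TRMs Krt18 read 32.6 and 31.5 RPKM in KL and 1.17 and 7.96 RPKM in KLG4, and Foxa2 stood at 2.17% and 1.58% of its KL tumor cell mean. Over 12 epithelial markers in the MDM table, the sum was 81.3 and 282 RPKM in KL and 21.6 and 64.4 RPKM in KLG4. Over 13 in the TRM table it was 144 and 164 RPKM in KL and 76.8 and 121 RPKM in KLG4. Not every epithelial gene followed. Epcam in TRMs read 16.7 and 19.5 RPKM in KL and 13.1 and 27.1 RPKM in KLG4. Sftpc in MDMs was lower in both KLG4 libraries, at 71.7 and 173 RPKM in KL and 22.9 and 33.7 RPKM in KLG4. As a percent of its tumor cell mean of the same genotype it overlapped, at 5.07% and 12.2% in KL and 6.86% and 10.1% in KLG4. Cdh1, which encodes E-cadherin, was higher in both KLG4 TRM libraries, at 16.8 and 26.2 RPKM in KL and 33.3 and 39.9 RPKM in KLG4, and in MDMs it overlapped, at 5.58 and 13.3 RPKM in KL and 11.1 and 14.9 RPKM in KLG4. The part of epithelial RNA in the macrophage values of the regulators was not tested.

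**Figure D5:**
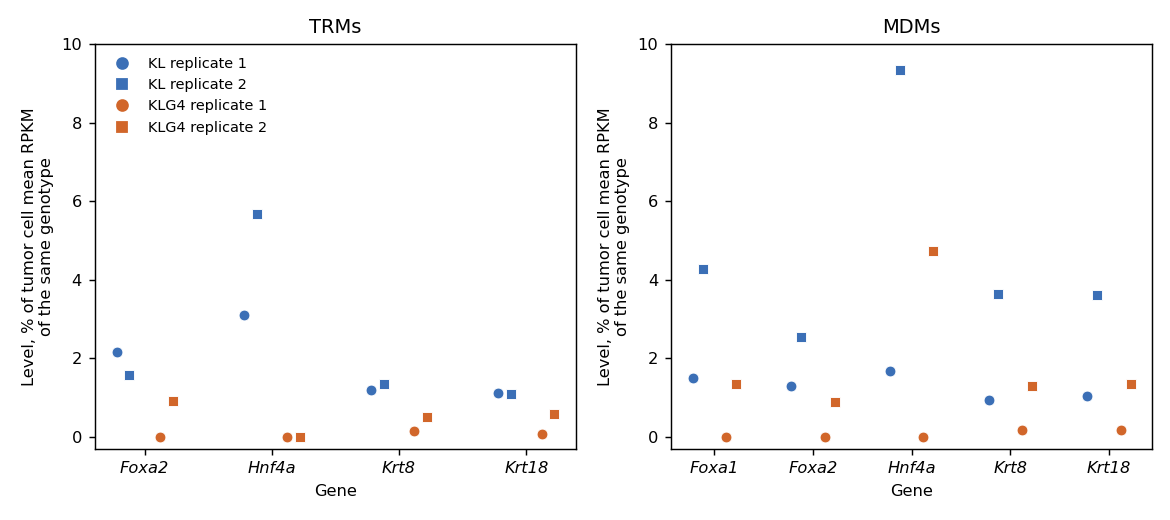
Level of the members and of the keratins Krt8 and Krt18 in each TRM and MDM library, as a percent of the tumor cell mean RPKM of the same genotype. In MDMs every gene shown is highest in KL replicate 2, where Hnf4a reaches 9.33%, and lowest in KLG4 replicate 1. Epcam and Sftpc are not shown.

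Foxa2 and Hnf4a, present in all 3 tables, could be compared in pattern with 10750 genes over all 12 libraries. Closest to Foxa2, by the root mean square difference of centred log2 values, among the genes reported here, were Atp1b1 (0.37), a sodium pump subunit, Lmo7 (0.38), Krt7 (0.40) and Myo5c (0.41). Closest to Hnf4a were Arhgef5 (0.48), Ptprk (0.49), Gm26714 (0.49), Sftpd (0.50), the surfactant protein D, and Ehf (0.51), an epithelial ETS factor. The points share library and genotype, and the separation of tumor cells from macrophages dominates each pattern.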

How the data were processed

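Libraries were non-directional poly(A) libraries. Per the labels and methods, the authors trimmed reads with Trim Galore 0.6.4, aligned them with HISAT2 2.0.5, counted them with featureCounts 2.0.0 (GRCm38) and deposited RPKM values, 1 table per population. The authors' own fold changes and p-values in those tables were not used. Another 5 libraries (CD8+ T cells and monocytes) were not analysed here. Each table was fitted alone with limma 3.58.1 (R 4.3.3, mean-variance trend, two-sided) on log2(RPKM + 0.1), keeping genes that reached 1 RPKM in 2 or more libraries, with Benjamini-Hochberg adjustment over all genes kept. Whole reads were recovered from the steps of the RPKM values for depth and for a voom alternative. The code was tested on simulated data. The members and lists were chosen with earlier results of these data known. Named genes were the members, genes overlapping them, and from the main lists up to 3 called genes per direction of largest change, with a group mean of at least 1 RPKM and no overlap between genotypes. Dcn, Gkn1, Krt18, the ratios and the promoters shown were chosen after values were seen. Pattern likeness over 12 libraries was computed for Foxa2 and Hnf4a and not for Nkx2-1, which had values in tumor cells alone. Alternatives were other pseudocounts, filters and scalings, no trend, a replicate block and leaving out each library. Zero limits cover counting error only. An allele of the tumor model and a gene of the pattern comparison are not reported here.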

Additional observations from a re-analysis of the deposited data

How the results depend on the processing

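The number of tumor cell genes called was 5543, and 8684 with epithelial scaling, 3284 with a mean of at least 5 RPKM, and from 1927 to 7372 when 1 library was left out, lowest without KLG4 replicate 2. The members called there were 5, and 3 of 7 tested with a mean of at least 5 RPKM, where Krt5 and Hmga2 were not tested and 46.7% of all genes were called, 6 when rescaled outside mitochondrial genes, with Sox2 added, and from 2 to 8 when 1 library was left out. In TRMs, 198 genes were called. The count was 557 with a mean of at least 5 RPKM, 120 with no filter, 12 with no trend, 122 with a pseudocount of 0.01, 490 with a pseudocount of 1, 60 with quantile scaling, 31 when rescaled outside mitochondrial genes, 1937 with voom on recovered reads, and from 113 to 2382 when 1 library was left out, highest without KL replicate 2. In MDMs limma called 0 genes, with 706 at an unadjusted p under 0.05, and the count stayed at 0 under all alternatives but the one without KL replicate 1, so that leaving out 1 library gave 0 to 2682. Tumor cell calls split into 2843 higher and 2700 lower, into 2585 and 4130 with quantile scaling (median gene -0.25) and into 3062 and 1948 when rescaled outside mitochondrial genes (median gene 0.02). TRM calls split into 150 higher and 48 lower, into 23 and 37 with quantile scaling and into 8 and 23 when rescaled. The causes of these shifts were not tested. In the macrophage tables members were tested in the fit with no filter alone, 2 in TRMs and 3 in MDMs, and limma called 0, with 2 and 1 at an unadjusted p under 0.05.

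Signs turned for Foxa1 (0.59), Foxa2 (0.34), Hnf4a (0.30) and Sox9 (0.86) with epithelial scaling, and for Sox9 also when rescaled outside mitochondrial genes (0.0732) and when 1 library was left out (-0.103 to 0.0259, turning without KL replicate 1). The log2 change of the Sox2 to Nkx2-1 ratio was 2.00 with a pseudocount of 1. Other member fold changes kept direction, with 107 alternative values unchanged in call, 6 that lost it and 5 that gained it.

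The labels give both genotypes replicate numbers 1 and 2. Deviations of same-numbered libraries correlated at 0.02 in tumor cells, -0.06 in TRMs and 0.05 in MDMs, so the numbers were not used to pair samples. With a replicate block 5388 tumor cell genes, 5 members, 470 TRM genes and 0 MDM genes were called. The values of Trp63 and of the members in macrophages rest on 0 to 68 reads. With 2 libraries per genotype the errors are themselves imprecise.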
